A study of Mus musculus with 15 samples.

Results

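The genes described here encode the sodium, calcium, chloride and pacemaker channels and the connexins of the cell. They were chosen by gene symbol alone: Scn genes with a number and the letter a or b, all Cacna genes, Cacnb, Cacng and Hcn genes with a number, all Clcn genes, and Gja to Gje genes with a number. The rule found 72 of the 23337 genes in the count table: 13 sodium, 26 calcium, 4 pacemaker and 9 chloride channel genes and 20 connexin genes. No measured value entered the choice.

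RNA was measured in heart muscle cells of mice aged 4 weeks. An adeno-associated virus (AAV), a viral carrier of genes, had been injected on postnatal day 1. The vector was AAV-GFP in the control group, AAV-ATF4-2A-GFP in the ATF4 group or AAV-DDIT3-2A-GFP in the DDIT3 group, with 5 libraries each, and the mice of every group, controls included, carried a Rosa allele for Cas9 and GFP. Cardiomyocytes were isolated on a Langendorff apparatus and purified by flow sorting before polyadenylated RNA was sequenced. ATF4 and DDIT3 (also called CHOP) are transcription factors of the integrated and endoplasmic reticulum stress responses. Which promoter drives the vectors is not stated in the labels. They also do not say whether the libraries of a group came from separate animals, so p-values measure only the spread between these samples, which may be technical.

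In the heart, an action potential starts with sodium entry and is held up by calcium entry, which triggers contraction. Pacemaker channels carry a current that brings nodal cells back to threshold, and connexins form the gap junctions through which the impulse passes from cell to cell. Each pore-forming alpha subunit of a sodium or calcium channel is joined by accessory subunits that set its trafficking and gating, and the CLC chloride genes encode both surface channels and exchangers of endosomes and lysosomes.

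Depth was alike, with GFP libraries of 6680988 to 7963333 counts, ATF4 libraries of 6217744 to 7514376 and DDIT3 libraries of 7268663 to 8317249. Levels are given in CPM, a gene's counts relative to the library's total scaled with TMM factors, as mean ± SD over 5 libraries unless stated. The delivered genes matched the labels: Atf4 stood at 399.9 ± 79.5 CPM in ATF4 against 71.1 ± 12.2 in GFP and 66.5 ± 22.9 in DDIT3, and Ddit3 at 844 ± 179.5 CPM in DDIT3 against 15.6 ± 1.28 in GFP and 29.5 ± 7.62 in ATF4. ATF4 replicate 2 and DDIT3 replicate 2 stood apart from the other libraries on the second principal component (11.4% of the variance), and calls of the genes named below that change without both are given there. The labels give no sex, but Xist and Y-linked transcripts marked these 2 as the only female libraries of their groups, while GFP had 2 (replicates 4 and 5). Defining cardiomyocyte transcripts (10 of 10 tested) summed to 111927 to 145178 CPM in GFP libraries, 96098 to 107188 in ATF4, below both other groups, and 117862 to 129473 in DDIT3. Of these 10, 5 fell in ATF4 against GFP (Tnni3, Ryr2, Pln, Myl2 and Mybpc3), beside 15.6% of all genes tested. The median log2 fold change of the 10 was -0.40. In DDIT3 against GFP, 0 of the 10 were called (0 at an unadjusted p below 0.05, 0 by DESeq2), beside 0.863% of all genes. The part of the cardiomyocyte transcripts in the channel and connexin values was not tested. Endothelial transcripts summed to 521 to 1037 CPM in GFP libraries, 1181 to 1713 in ATF4 and 505 to 849 in DDIT3, and leukocyte transcripts to at most 21.4 CPM in any library. The label of GFP replicate 5 names another version of the library kit (SMART-Seq3) than the other 14 (SMART-Seq2), and calls that turn without that library are named below.

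Of the 72 genes, 34 had enough counts to be tested, about 1.33 CPM or more in 5 libraries. Gjb2 reached that level in ATF4 alone, and Scn3a, Cacna2d2, Scn10a and Clcn5 were among those that did not reach it in every group, so counts over the 34 genes describe the genes that passed and not all 72. Another 11 genes had no count in any library, among them Gjb1, Gjb6, Scn2b and Cacna1i. A further 22 genes had between 1 and 49 counts over all 15 libraries. The remaining 5 genes had at least 50 counts but stayed under the filter: Cacna1d (the L-type calcium pore of nodal cells) with 114 counts in all, Cacnb4 with 111, Scn3b with 76, Cacng6 with 74 and Cacna2d3 with 70. Cacna1d counts were spread as 29 in GFP, 12 in ATF4 and 73 in DDIT3 and were not tested. None of the 8 calcium gamma subunit genes was tested.

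Levels of different genes were compared per kilobase of the deposited gene length. On that scale Gja1, the gap junction protein Cx43 of working heart muscle, led in GFP with 504 ± 60.7 CPM per kilobase. A set of genes lower in the order lay close together: Clcn4-2 at 30.5 ± 3.84, Cacnb2 at 29.1 ± 7.25, Gja3 at 23.3 ± 1.19, Cacna1c at 22.1 ± 4.71, Hcn2 at 20.8 ± 2.91 and Cacna2d1 at 20.4 ± 4.25. Neighbours in this order of 6 genes differed by less than the larger of their SDs. Gja1 stood above them by more than the SDs.

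ATF4 libraries held less RNA of the sodium pore genes Scn4a and Scn10a, of the pacemaker gene Hcn2 and of the connexins Gja1, Gja3 and Gjc1 than GFP libraries, and more of Gjb2, Cacna1a and Clcn5. Of the 34 tested genes, 13 fell and 5 rose in ATF4 against GFP (edgeR's quasi-likelihood test, Benjamini-Hochberg adjusted p below 0.05 over 11814 genes, called below). Among all genes tested 15.6% were called lower, 16.5% higher and 32.2% in either direction, against 52.9% of these 34. The median log2 fold change was -0.29 over the 34 genes and 0.02 over all genes. In 14 of the 34 genes the ATF4 and GFP libraries did not overlap, as in 21.4% of all genes. Gjb2, Cacna1a and Clcn5 were among the genes called higher. Among those called lower were Gja1, Gja3, Gjc1, Hcn2, Scn4a, Scn10a, Scn4b, Cacna1g, Cacnb2, Cacna2d1 and Clcn1. Sums of bulk RNA cannot tell fewer cells of a type from less RNA per cell. The count of genes called higher was 3 without ATF4 replicate 4.

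DDIT3 moved few of these genes past the threshold. Of the 34 genes 2 rose, among them Cacnb1, an accessory calcium channel subunit, and 0 were called lower by edgeR's quasi-likelihood test, beside 0.525% of all genes called higher, 0.339% lower and 0.863% in either direction. At an unadjusted p below 0.05, 3 of the 34 genes were higher and 11 lower (5.13% and 4.58% of all genes), and DESeq2 called 2 higher and 5 lower (Gja1, Scn4a, Clcn1 and Hcn4 among them, beside 0.855% of all genes called lower). Libraries of DDIT3 and GFP with the same replicate number deviated together across genes, though no label says that the numbers pair libraries. When that number entered the fit as a block, 2 genes were called higher (1.55% of all genes) and 7 lower (1.18% of all genes). Gja1, Scn4a, Cacna1g, Hcn4 and Clcn1 were among the 7. The count of genes called lower was 3 without GFP replicate 2, 2 without DDIT3 replicate 4 or ATF4 replicate 2 and 1 without DDIT3 replicate 5. The count called higher was 0 without DDIT3 replicate 1, 2, 3 or 4 or GFP replicate 3, 4 or 5, and 1 without ATF4 replicate 1, 3, 4 or 5 or GFP replicate 1 or 2. The median log2 fold change was -0.22 over the 34 genes and 0.00 over all genes. The libraries of the 2 groups did not overlap in 4 of the 34 genes (Gja3, Scn10a and, only just, Cacnb1 and Gja5), as in 2.86% of all genes.

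ATF4 and DDIT3 libraries were also compared with each other. Of the 34 genes, 9 were higher in ATF4 (among them Gjb2, Gja4, Clcn5, Cacna1s, Cacna1a, Cacnb3, Scn3a and Hcn4) and 8 lower (Hcn2, Cacna1g, Cacnb1, Cacna2d1, Cacna2d2, Gja3, Gjc1 and Clcn1). Among all genes 17.8% were called higher, 16.0% lower and 33.8% either way. Library ranges did not overlap in 10 of the 34 genes and in 22.6% of all genes. Same-numbered libraries of these groups deviated together too, and with the block 10 genes were called higher and 14 lower (22.0% of all genes were then lower). The block added Cacna1h to the higher genes and, among others, Scn4a, Scn4b, Cacnb2, Clcn2 and Clcn4-2 to the lower. All 3 comparisons share libraries with each other, so their values are set side by side below and are not independent of one another.

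**Figure D1:**
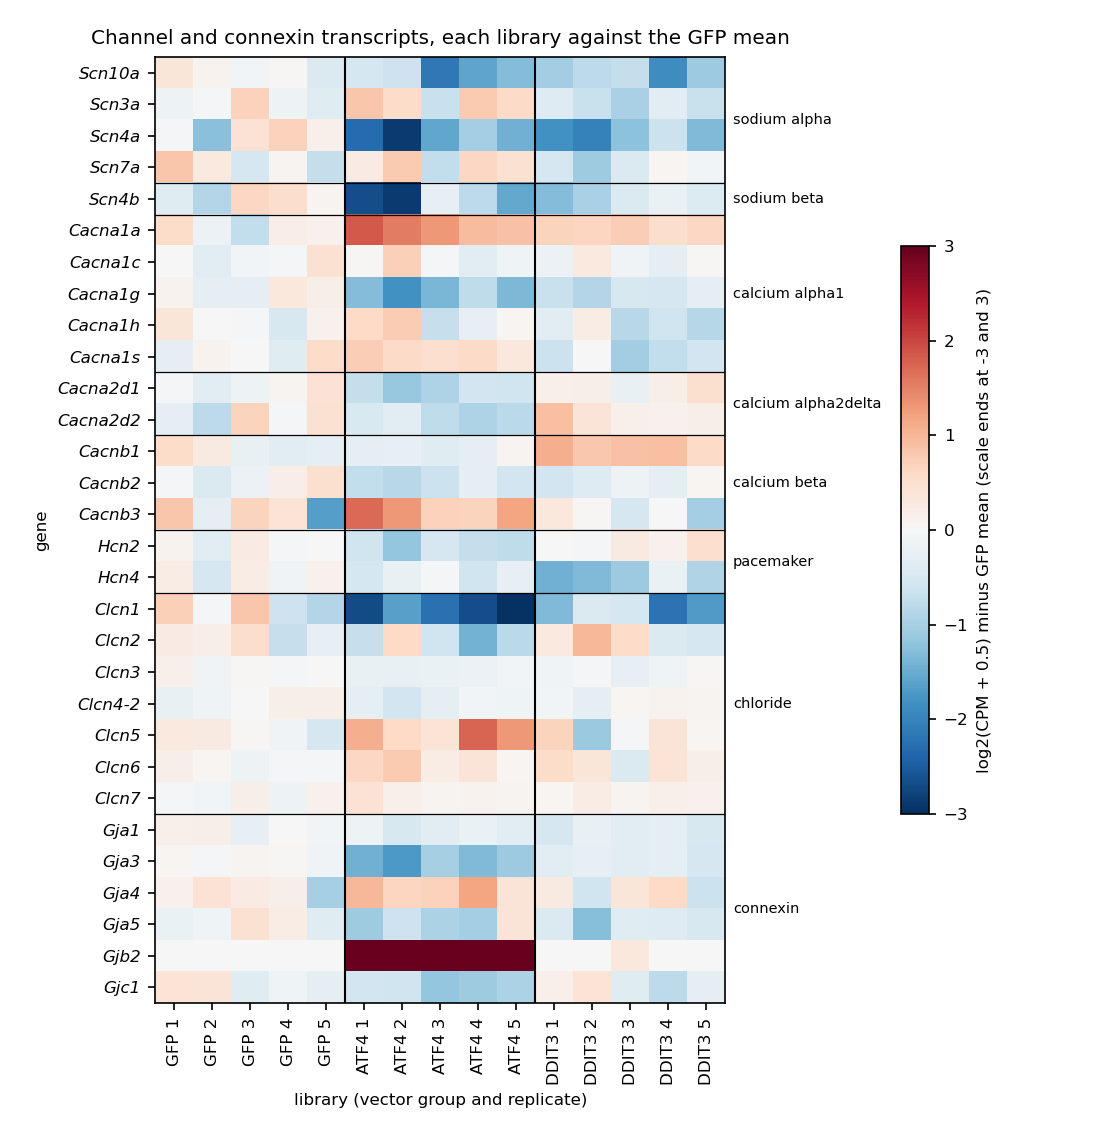
Each cell shows log2(CPM + 0.5) of 1 of 30 tested genes in 1 library minus the mean of the 5 GFP libraries, on a colour scale that ends at -3 and 3, with the 5 libraries of each vector group side by side and genes ordered by subfamily. Gjb2 stands high in all 5 ATF4 libraries, and Clcn1, Scn4a and Gja3 stand below the GFP mean in all 5.

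**Figure D2:**
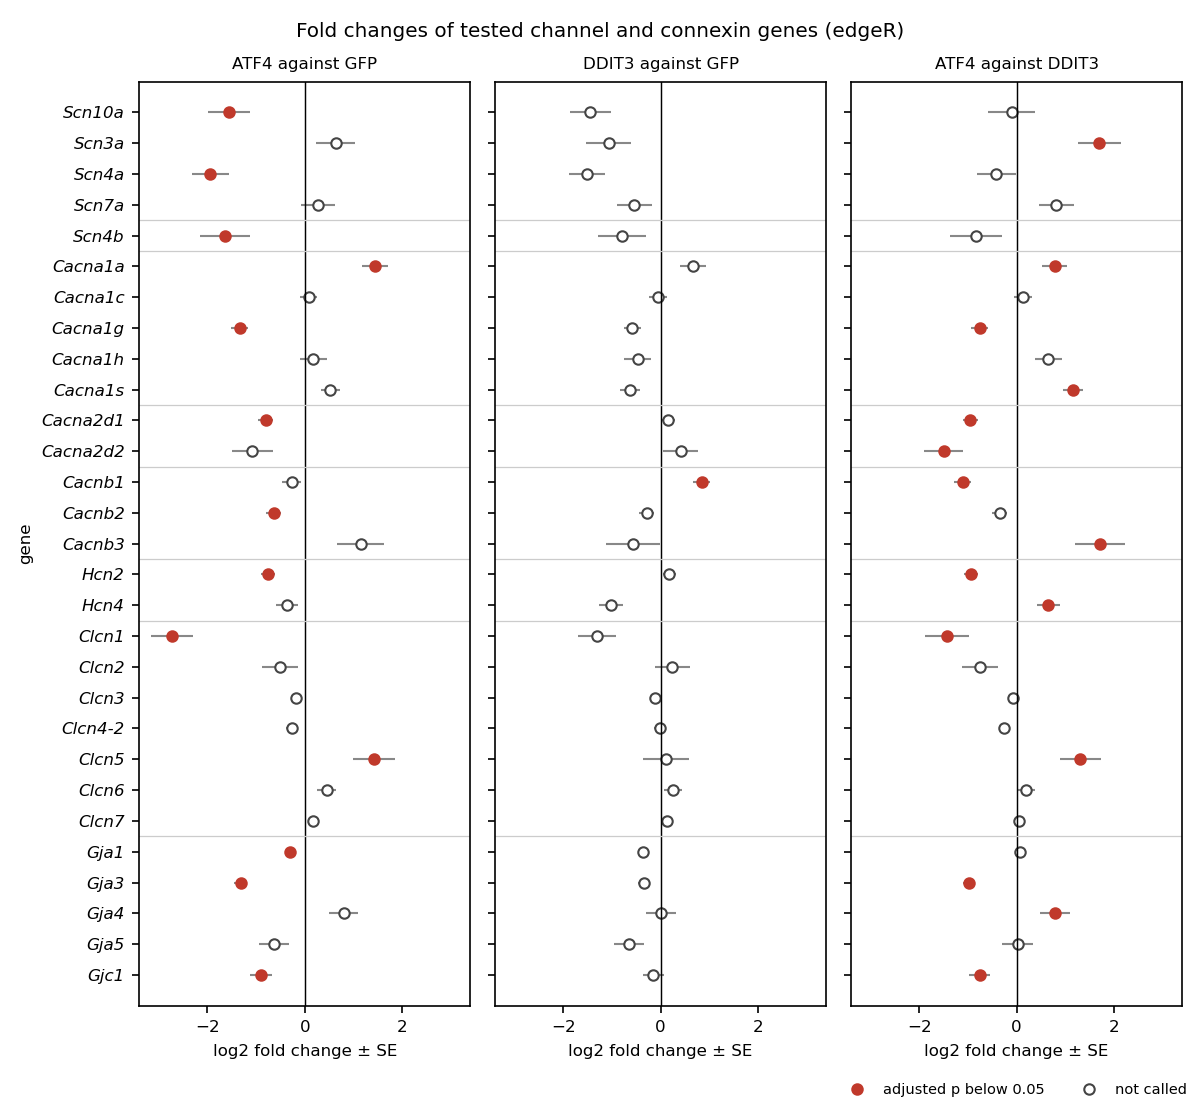
Points show the log2 fold change and bars its standard error for 29 tested genes in the 3 comparisons (edgeR), filled where the adjusted p was below 0.05; Gjb2 is left out because it had no count in GFP. In ATF4 against GFP 11 filled points lie left of 0 and 2 right of it, and in DDIT3 against GFP the 1 filled point, Cacnb1, lies right of 0.

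Several sodium channel genes fell in ATF4 against GFP, Scn4a, Scn10a and Scn4b among them. Scn4a, the sodium pore of skeletal muscle fibres, in the order of replicates 1 to 5, held 15.8, 6.52, 22.1, 26.3 and 18.0 CPM in GFP, 2.86, 1.76, 5.11, 7.66 and 5.59 in ATF4, with 4.24, 3.61, 6.63, 10.1 and 6.20 in DDIT3. GFP replicate 2 alone of the GFP libraries reached into the ATF4 and DDIT3 ranges. Scn4a fell in ATF4 (log2 fold change -1.94 ± 0.38, edgeR adjusted p = 0.000914). In DDIT3 it stood at -1.52 ± 0.37 (edgeR adjusted p = 0.0687), and at -1.51 ± 0.16 with the block (0.000123). Leaving out GFP replicate 2 (0.0192), DDIT3 replicate 4 (0.0469) or ATF4 replicate 2 (0.0382) also brought its adjusted p in DDIT3 under the threshold. The 2 groups given ATF4 and DDIT3 differed by -0.42 ± 0.40 (edgeR adjusted p = 0.450, and 0.0478 with the block). Skeletal muscle fibre transcripts summed to 18.0 to 42.9 CPM in GFP libraries, 30.2 to 88.3 in ATF4 and 13.0 to 20.1 in DDIT3, with Myh1 at 0 in every library. The sum was mostly Myl1, which rose in ATF4 against GFP (20.1 ± 9.24 to 54.2 ± 21.3 CPM), while Tnni2, the other tested member of that list, fell (2.62 ± 0.932 to 0.390 ± 0.279 CPM). The part of these transcripts in the Scn4a, Clcn1 and Cacna1s values was not tested.

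Scn10a, best known as a sodium pore of sensory neurons, was a low transcript: 3.08, 2.48, 2.14, 2.37 and 1.58 CPM in GFP, 1.43, 1.32, 0.134, 0.426 and 0.635 in ATF4, with 0.847, 1.11, 1.21, 0.260 and 0.808 in DDIT3. Every GFP library lay above every ATF4 and every DDIT3 library. Scn10a fell in ATF4 (log2 fold change -1.55 ± 0.43, edgeR adjusted p = 0.0105), stood at -1.45 ± 0.42 in DDIT3 (0.150) and at -0.10 ± 0.48 between ATF4 and DDIT3 (0.893). Scn3a, a sodium pore of developing neurons, stood at 0.995 ± 0.482 CPM in GFP, 1.55 ± 0.672 in ATF4 and 0.463 ± 0.166 in DDIT3. Its level in ATF4 was above that in DDIT3 (1.70 ± 0.44, edgeR adjusted p = 0.00661), and neither group was called against GFP (0.242 and 0.457). Neural and glial transcripts summed to 7.97 to 12.3 CPM in GFP libraries, 26.4 to 45.6 in ATF4 and 13.1 to 20.5 in DDIT3, with Tubb3 and Cnp higher in ATF4 and Th at 0 in every library; their part in the Scn3a and Cacna1a values was not tested.

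Scn4b, the subunit linked to resurgent sodium current, fell in ATF4 from 4.62 ± 2.03 to 1.46 ± 1.42 CPM (-1.64 ± 0.52, edgeR adjusted p = 0.0230), with values of 0.260, 0.147, 3.50, 2.27 and 1.14 CPM in the ATF4 libraries and 3.22, 2.09, 6.89, 6.32 and 4.58 in the GFP libraries. Its groups overlapped through ATF4 replicates 3 and 4. The Scn4b call was lost without ATF4 replicate 1 (0.0560), ATF4 replicate 5 (0.0504), GFP replicate 3 (0.0606) or GFP replicate 4 (0.0565), and the log2 fold change was -2.25 ± 0.54 without ATF4 replicate 3. In DDIT3 Scn4b stood at 2.63 ± 0.902 CPM (-0.80 ± 0.49 against GFP, edgeR adjusted p = 0.665), and ATF4 against DDIT3 passed only with the block (-0.99 ± 0.36, 0.0385).

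Of 12 tested partners of the sodium channel (a list of 14 genes that hold, anchor or modify it), 6 fell and 0 rose in ATF4 against GFP (median log2 fold change -0.36). Fgf14, which binds the tail of sodium pores, fell by 2.34 ± 0.30 on the log2 scale (edgeR adjusted p = 1.2e-05), and Cav3, the muscle caveolin, and Camk2d, a calcium-activated kinase, were among the others that fell. By edgeR's quasi-likelihood test, 0 of these partners were called in DDIT3 against GFP, beside 0.863% of all genes. At an unadjusted p below 0.05, 1 was lower, with 0 called by DESeq2 and 1 lower with the block.

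The main calcium pore of the ventricle did not pass the test in any comparison, while the low-voltage pore Cacna1g and the accessory subunits did. Of 10 tested calcium channel genes, 3 fell and 1 rose in ATF4 against GFP (40.0% called, beside 32.2% of all genes; median log2 fold change -0.10). Cacna1c, the L-type pore that triggers contraction, stood at 199.8 ± 42.7 CPM in GFP, 211 ± 65.2 in ATF4 and 192 ± 30.4 in DDIT3. The log2 fold changes were 0.08 ± 0.18 in ATF4 (edgeR adjusted p = 0.785), -0.06 ± 0.18 in DDIT3 (0.968) and 0.13 ± 0.18 between them (0.608). ATF4 replicate 2 held 324 CPM of Cacna1c, above the 158 to 202 of the other ATF4 libraries, and without it the value in ATF4 was -0.13 ± 0.15 (0.520).

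Cacna1g, a T-type pore that opens near the resting potential and is used by nodal and immature heart cells, held 30.7, 23.3, 23.3, 35.8 and 32.2 CPM in GFP, 11.3, 7.77, 10.8, 16.6 and 11.0 in ATF4, with 17.8, 15.3, 20.5, 20.0 and 23.8 in DDIT3. No ATF4 library reached the GFP range. The DDIT3 libraries lay mostly between, with replicate 5 inside the GFP range and replicate 2 below the highest ATF4 library. Cacna1g fell in ATF4 against GFP (-1.34 ± 0.18, edgeR adjusted p = 2.4e-05) and was lower in ATF4 than in DDIT3 (-0.76 ± 0.18, 0.00410). DDIT3 against GFP stood at -0.58 ± 0.18 (0.185) and was called with the block (-0.57 ± 0.12, 0.0223). Cacna1h, the other T-type pore of the heart, stood at 11.4 ± 2.45 CPM in GFP, 12.9 ± 5.29 in ATF4 and 8.20 ± 2.95 in DDIT3 and was not called against GFP in either group (edgeR adjusted p = 0.657 and 0.647). Between ATF4 and DDIT3 it was 0.65 ± 0.28 (0.0779), called with the block (0.0143), without ATF4 replicate 3 (0.0227) and without DDIT3 replicate 2 (0.0216).

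Among calcium pores known from other tissues, Cacna1a, the pore of nerve terminals, held 3.35, 1.82, 1.07, 2.50 and 2.37 CPM in GFP, 8.85, 7.04, 5.92, 4.54 and 4.32 in ATF4, with 3.63, 3.61, 3.86, 3.25 and 3.50 in DDIT3. All ATF4 libraries lay above both other groups, whose own ranges met at GFP replicate 1. Cacna1a rose in ATF4 against GFP (1.45 ± 0.27, edgeR adjusted p = 0.000441) and was higher than in DDIT3 (0.78 ± 0.25, 0.0239), a call lost without ATF4 replicate 1 (0.0878) and without both libraries that stood apart (0.0670). Cacna1s, the voltage sensor of skeletal muscle, was higher in ATF4 (16.1 ± 1.68 CPM) than in DDIT3 (7.24 ± 2.15 CPM), by 1.16 ± 0.20 on the log2 scale (edgeR adjusted p = 0.000285), with no overlap between their libraries. Against GFP (11.2 ± 3.19 CPM) it stood at 0.53 ± 0.20 in ATF4 (0.0505) and at -0.63 ± 0.21 in DDIT3 (0.229). The ATF4 value was called in 10 alternatives. Among them were DESeq2 (0.0370), the block (0.0260), a term for sex (0.0232), a stricter filter (0.0441) and those 2 groups alone (0.0435). The others left out GFP replicate 5 (0.0114), ATF4 replicate 5 (0.0495), DDIT3 replicate 2 (0.0294), DDIT3 replicate 3 (0.0449) or both libraries that stood apart (0.0428). Exons of an antisense gene overlap exons of Cacna1s, the longest overlap being 866 bases, and those of another overlap Cacna1a (151 bases). Since the kit does not mark strand, reads from the overlaps cannot be told apart. The same holds for Cacnb4 (longest overlap 1170 bases), Cacna1d (587), Cacna1h (158), Cacnb2 (253), Cacna2d2 (82), Clcn2 (85), Clcn4-2 (155) and Gja5 (165).

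Cacna2d1, the main alpha2delta subunit of heart and skeletal muscle, held 144, 121, 135, 160.2 and 204 CPM in GFP, 91.3, 68.2, 78.9, 101 and 98.5 in ATF4, with 168, 170.2, 128, 171 and 209 in DDIT3. The ATF4 libraries lay below all others, and GFP and DDIT3 overlapped. Cacna2d1 fell in ATF4 against GFP (-0.80 ± 0.15, edgeR adjusted p = 0.000578) and was lower than in DDIT3 (-0.95 ± 0.15, 0.000109), while DDIT3 against GFP was 0.15 ± 0.15 (0.836). Its minor relative Cacna2d2, at 1.37 ± 0.721 CPM in GFP, 0.627 ± 0.194 in ATF4 and 1.79 ± 0.576 in DDIT3, was lower in ATF4 than in DDIT3 (-1.50 ± 0.40, edgeR adjusted p = 0.00738). In ATF4 against GFP Cacna2d2 stood at -1.08 ± 0.42 (0.0537), called without ATF4 replicate 2 (0.0495), DDIT3 replicate 1 (0.0497), GFP replicate 1 (0.0475) or GFP replicate 2 (0.0181).

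The beta subunits bind the calcium pore inside the cell and bring it to the membrane. Cacnb1, the beta subunit of skeletal muscle, held 12.6, 10.2, 7.20, 6.58 and 6.95 CPM in GFP, 6.90, 7.04, 6.46, 6.95 and 8.89 in ATF4, with 18.4, 15.1, 16.0, 16.1 and 12.7 in DDIT3. Every DDIT3 library lay above every GFP library, DDIT3 replicate 5 only just above GFP replicate 1, and above every ATF4 library. Cacnb1 rose in DDIT3 against GFP (0.84 ± 0.18, edgeR adjusted p = 0.0323, and 0.0125 with the block) and was lower in ATF4 than in DDIT3 (-1.11 ± 0.18, 0.000139), with ATF4 against GFP at -0.27 ± 0.19 (0.295). The DDIT3 call was lost without DDIT3 replicate 1 (0.118), 2 (0.0576), 3 (0.0685) or 4 (0.0634), without GFP replicate 3 (0.0957), 4 (0.0987) or 5 (0.0737), and in a fit of those 2 groups alone (0.0686). Cacnb2, the main beta subunit of the heart, fell in ATF4 from 129.6 ± 32.2 to 83.3 ± 13.3 CPM (-0.64 ± 0.16, edgeR adjusted p = 0.00579), with overlapping libraries. In DDIT3 it stood at 106 ± 18.1 CPM (-0.29 ± 0.16, 0.614), and ATF4 against DDIT3 (-0.35 ± 0.16, 0.107) was called with the block (0.0171) and without ATF4 replicate 4 (0.0478). Cacnb3 was higher in ATF4 than in DDIT3 (1.99 to 4.56 against 0.269 to 1.45 CPM, a log2 difference of 1.72 ± 0.51, edgeR adjusted p = 0.0143).

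Per kilobase, the make-up of the beta subunits differed between the groups. Cacnb2 made up 87.1 ± 5.05% of beta transcripts in GFP, 82.0 ± 3.31% in ATF4 and 77.4 ± 5.30% in DDIT3, and Cacnb1 11.2 ± 4.47%, 13.1 ± 1.90% and 21.2 ± 4.62%. These shares are descriptions with no test. Of 13 tested partners of the calcium channel (of 17 listed), 1 rose and 3 fell in ATF4 against GFP (30.8% called, near the 32.2% of all genes; median log2 fold change 0.25). Bin1, which shapes the transverse tubules, rose by 2.00 ± 0.42 on the log2 scale (edgeR adjusted p = 0.00132), and Akap7, a kinase anchor, fell by 0.72 ± 0.11. Jph1 and Jph2, the junctophilins that tie the surface membrane to the calcium store, stood at -0.65 ± 0.17 and -0.60 ± 0.18, both called. By edgeR's quasi-likelihood test, 0 partners of the calcium channel were called in DDIT3 against GFP, beside 0.863% of all genes. At an unadjusted p below 0.05, 1 was higher, with 0 called by DESeq2 and 0 with the block.

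**Figure D3:**
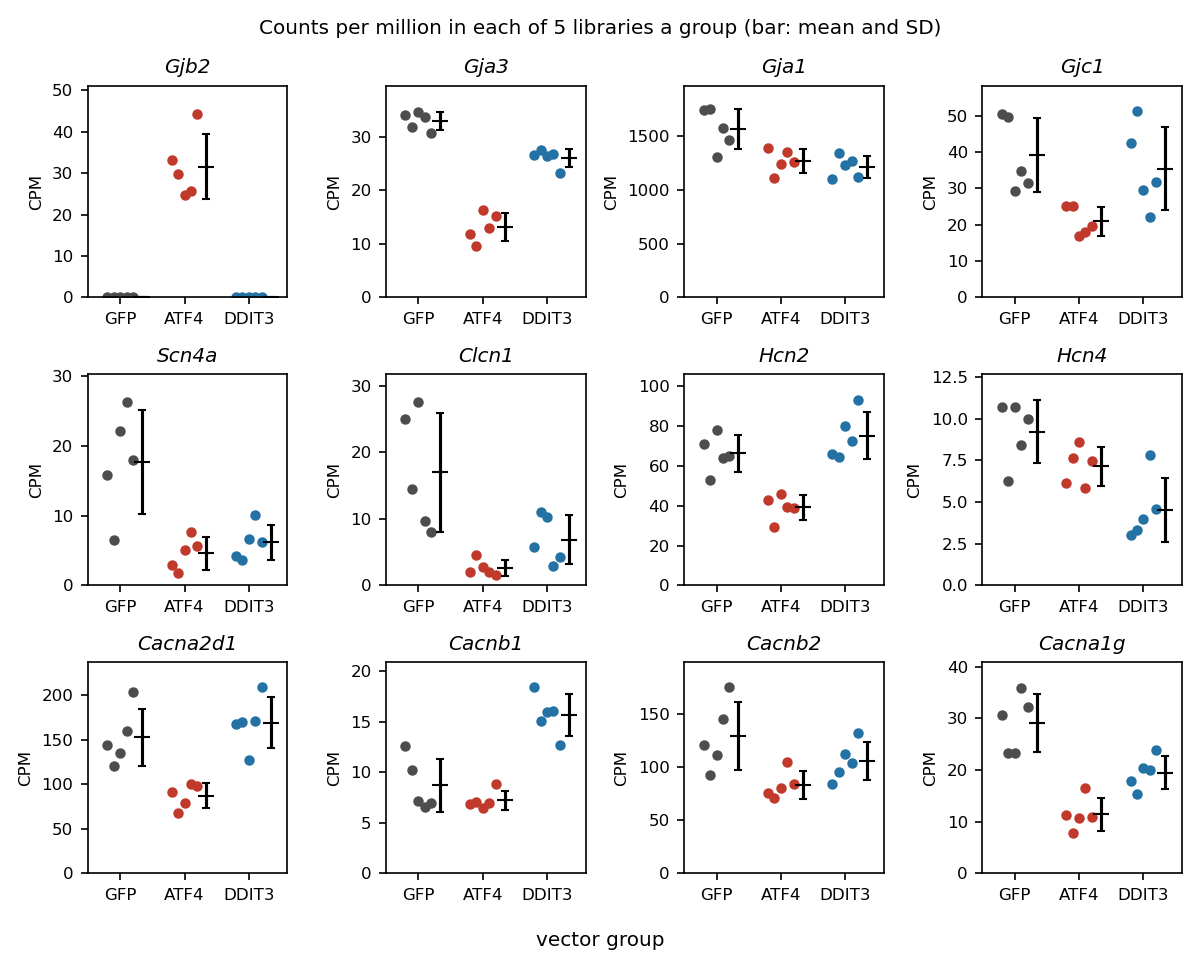
Each point is the CPM of 1 library for 12 of the genes, in GFP, ATF4 and DDIT3, and the bar beside each group gives the mean and SD of its 5 libraries; every vertical axis is linear, starts at 0 and has its own scale. Hcn2 and Cacna2d1 are low in the ATF4 libraries and not in the DDIT3 libraries, Scn4a and Clcn1 are low in most libraries of both groups, and Cacnb1 is high in DDIT3.

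The pacemaker channels split by group: Hcn2, the main isoform of ventricular muscle, was low in ATF4, and Hcn4, the isoform of the sinoatrial node, had its lowest mean in DDIT3. Hcn2 held 71.1, 53.2, 78.3, 64.0 and 65.3 CPM in GFP, 43.1, 29.3, 46.0, 39.6 and 38.7 in ATF4, with 66.3, 64.4, 80.1, 72.4 and 93.4 in DDIT3. The ATF4 libraries lay below all 10 others, and GFP and DDIT3 overlapped. Hcn2 fell in ATF4 against GFP (-0.75 ± 0.14, edgeR adjusted p = 0.000403) and was lower than in DDIT3 (-0.94 ± 0.14, 4.6e-05), with DDIT3 against GFP at 0.18 ± 0.13 (0.750).

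Hcn4 held 10.7, 6.26, 10.7, 8.43 and 9.96 CPM in GFP, 6.12, 7.62, 8.61, 5.82 and 7.49 in ATF4, with 3.03, 3.33, 3.98, 7.81 and 4.58 in DDIT3. DDIT3 replicate 4 reached the other groups, and the other 4 DDIT3 libraries lay below every GFP and ATF4 library. DDIT3 against GFP stood at -1.02 ± 0.24 (edgeR adjusted p = 0.0524) and was called with the block (-1.03 ± 0.24, 0.0273), without DDIT3 replicate 4 (-1.30 ± 0.21, 0.00636), without GFP replicate 2 (0.0372) and without ATF4 replicate 2 (0.0487). ATF4 against GFP was -0.37 ± 0.23 (0.242). Hcn4 was higher in ATF4 than in DDIT3 (0.65 ± 0.24, edgeR adjusted p = 0.0454), a call lost in 15 of 23 alternatives (up to 0.145, with both libraries that stood apart left out), among them without any 1 library other than ATF4 replicate 4, DDIT3 replicate 4 and GFP replicate 2.

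Per kilobase, Hcn2 made up 87.6 ± 1.22% of the pacemaker transcripts in GFP, 85.7 ± 2.90% in ATF4 and 94.3 ± 2.11% in DDIT3, and Hcn4 10.2 ± 0.952%, 13.3 ± 2.90% and 4.78 ± 1.93%. The summed level was 23.7 ± 3.44 CPM per kilobase in GFP, 14.3 ± 2.01 in ATF4 and 25.0 ± 3.85 in DDIT3. Transcripts of the conduction system and nodes summed to 255 to 313 CPM in GFP libraries, 199 to 244 in ATF4 and 193 to 239.6 in DDIT3. Of the 8 tested markers in that list of 12, Smoc2 and Nptn fell in ATF4 and Smoc2 in DDIT3, none of the 12 was at 0 in all libraries, and their part in the Hcn4, Cacna1g and Gja5 values was not tested. Of 4 pacemaker channel partners 1 was tested, Mrvi1, and it was called only between ATF4 and DDIT3 (0.71 ± 0.24, edgeR adjusted p = 0.0304).

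**Figure D4:**
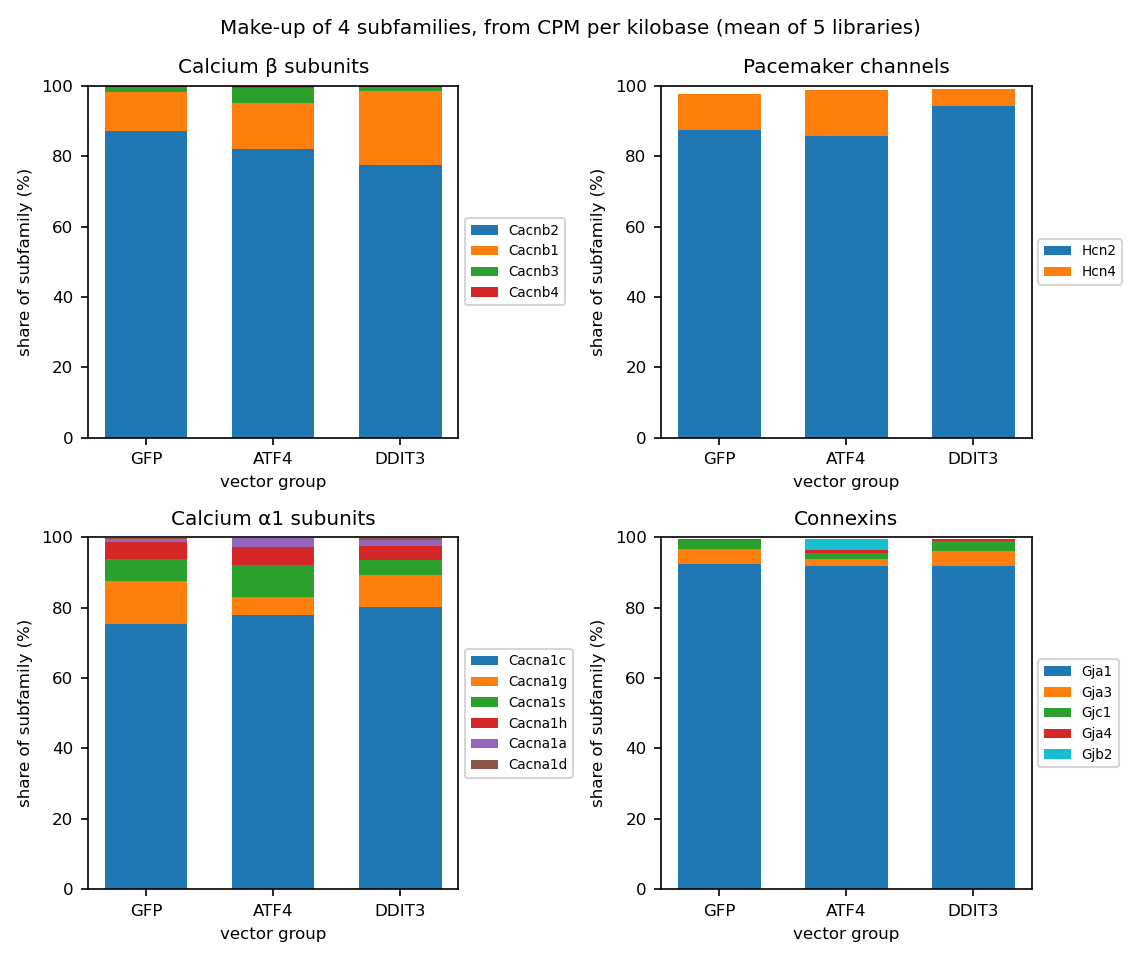
Stacked bars give the mean share of each gene in its subfamily's summed CPM per kilobase over 5 libraries of a group, for 4 subfamilies; the genes drawn reached 0.5% in at least 1 group, and a bar that ends under 100% holds genes that are not drawn. Cacnb1 takes 11.2% of the calcium beta bar in GFP and 21.2% in DDIT3, Hcn4 takes 10.2% and 4.78% of the pacemaker bars, and Cacna1g 12.2% of the calcium alpha1 bar in GFP and 5.12% in ATF4.

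Among the CLC chloride genes, Clcn1 fell and Clcn5 rose in ATF4 against GFP. Clcn3, Clcn4-2, Clcn6 and Clcn7, exchangers of endosomes and lysosomes, were not called by edgeR without the block. Clcn1, the chloride channel that steadies the resting potential of skeletal muscle, held 25.1, 14.5, 27.6, 9.74 and 8.06 CPM in GFP, 1.95, 4.54, 2.82, 1.99 and 1.52 in ATF4, with 5.81, 11.1, 10.3, 2.86 and 4.31 in DDIT3. The ATF4 libraries lay below every GFP library, and DDIT3 overlapped with both groups. Clcn1 fell in ATF4 against GFP (-2.73 ± 0.43, edgeR adjusted p = 0.000131). In DDIT3 it stood at -1.30 ± 0.39 (0.169), called with the block (-1.32 ± 0.24, 0.00776). Its lower level in ATF4 than in DDIT3 (-1.43 ± 0.45, edgeR adjusted p = 0.0202) was no longer called without ATF4 replicate 1 (0.0508), ATF4 replicate 5 (0.0519), DDIT3 replicate 2 (0.0537) or DDIT3 replicate 3 (0.0545).

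Clcn5, an exchanger of endosomes known from the kidney, rose in ATF4 from 0.913 ± 0.301 to 2.49 ± 1.11 CPM (1.42 ± 0.43, edgeR adjusted p = 0.0172) and was higher than in DDIT3 (1.31 ± 0.42, 0.0220). Both Clcn5 calls were lost without ATF4 replicate 4 (0.0542 and 0.0708).

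Clcn3, an exchanger of endosomes, stood at 90.7 ± 6.07 CPM in GFP, 80.0 ± 3.64 in ATF4 and 84.4 ± 5.77 in DDIT3 (-0.18 ± 0.08 in ATF4, edgeR adjusted p = 0.102; called by DESeq2, 0.0479). Clcn2, Clcn4-2, Clcn6 and Clcn7 ranged from -0.51 to 0.45 in ATF4 and from -0.02 to 0.25 in DDIT3 (log2 fold change against GFP). With the block, ATF4 was lower than GFP in Clcn4-2 (-0.27 ± 0.07, edgeR adjusted p = 0.00530) and Clcn2 (-0.59 ± 0.21, 0.0315). It was higher than GFP in Clcn6 (0.45 ± 0.15, 0.0223). ATF4 was then also lower than DDIT3 in Clcn4-2 (-0.25 ± 0.07, edgeR adjusted p = 0.00862) and Clcn2 (-0.78 ± 0.20, 0.00575). The summed CLC level was 74.4 ± 4.23 CPM per kilobase in GFP, 69.9 ± 2.14 in ATF4 and 72.9 ± 1.02 in DDIT3.

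Of 14 tested chloride channel partners and chloride channels of other families (19 in the table), 5 rose and 3 fell in ATF4 against GFP. That was 57.1% called, beside 32.2% of all genes, and the median log2 fold change of the 14 was 0.44. The largest changes were in LRRC8 genes, whose products form the volume-regulated anion channel. Lrrc8d rose from 12.9 ± 2.42 to 110.3 ± 16.1 CPM (3.10 ± 0.17, edgeR adjusted p = 1.4e-10) and Lrrc8e from 0.480 ± 0.304 to 20.4 ± 4.05 CPM (5.37 ± 0.41, 1.4e-08), with no overlap of the libraries in either gene. Ano4 and Ano8, of the anoctamin family, fell by 1.62 ± 0.26 and 0.51 ± 0.11 on the log2 scale. By edgeR's quasi-likelihood test, 0 of these 14 genes were called in DDIT3 against GFP, beside 0.863% of all genes. At an unadjusted p below 0.05, 1 was higher and 2 lower, with 1 lower by DESeq2 and 0 with the block.

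Of 6 tested connexin genes 3 fell (Gja1, Gja3 and Gjc1) and 1 rose (Gjb2) in ATF4 against GFP. That was 66.7% called, beside 32.2% of all genes. In DDIT3 against GFP, 0 of the 6 were called by edgeR, beside 0.863% of all genes. At an unadjusted p below 0.05, 2 were lower, and Gja1 was called lower by DESeq2 and with the block. Gjb2 (Cx26), the connexin of the cochlea, liver and skin, had no count in GFP, 1171 counts in ATF4 and 1 count in DDIT3. The ATF4 libraries held 33.2, 29.8, 24.7, 25.7 and 44.2 CPM, all far above every other library. The ATF4 level was at least 377-fold higher than in GFP, against a floor of 3 counts over the GFP group, and 1235 times that in DDIT3 (95% exact interval 221 to 48817, counting error only). Gjb2 was called in ATF4 against GFP (edgeR adjusted p = 2.8e-10) and against DDIT3 (2.5e-10).

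On chromosome 14, Gjb2 (57098602 to 57104702) and Gja3 (57034460 to 57058030) are neighbours with 40.6 kb between them, yet Gjb2 rose and Gja3 fell in ATF4. The next connexin on the other side, Gjb6, 18.6 kb from Gjb2, had no count. The 250 bases upstream of each gene's start (for Gja3 the outermost start) are shown because these neighbours moved in opposite directions (RefSeq, GRCm38.p6, minus strand). Capitals mark matches on either strand. The element looked for upstream of Gjb2 was the GC box, in the letters GGGCGG, and upstream of Gja3 the TATA box, in the letters TATAAA; both were searched in both stretches and chosen after the values were seen.
Gjb2 at chr14:57104703-57104952: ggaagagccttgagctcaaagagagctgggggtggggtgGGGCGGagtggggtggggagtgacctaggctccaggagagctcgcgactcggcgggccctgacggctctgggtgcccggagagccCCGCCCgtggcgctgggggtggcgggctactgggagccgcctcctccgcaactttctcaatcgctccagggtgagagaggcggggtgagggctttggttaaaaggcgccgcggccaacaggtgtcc
Gja3 at chr14:57058031-57058280: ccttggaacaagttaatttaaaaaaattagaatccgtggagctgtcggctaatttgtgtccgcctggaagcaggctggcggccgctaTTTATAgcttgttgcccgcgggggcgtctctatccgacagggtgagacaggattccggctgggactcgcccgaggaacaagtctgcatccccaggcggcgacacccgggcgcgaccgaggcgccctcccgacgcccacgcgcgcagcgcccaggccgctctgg
The Gjb2 stretch is 69.2% G and C and holds 2 GC box matches, and the Gja3 stretch is 62.8% G and C and holds 1 TATA box match, on its reverse strand. Of all 32851 RefSeq promoter windows, 32.7% hold the GC box letters and 12.4% the TATA box letters in the 250 bases before the start. A match describes letters and is not a shown binding site.

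The composite element TGATGNAA, which bZIP dimers of the ATF4 and C/EBP families are known to bind, was searched on both strands of the same windows. Here the whole window was searched, which also holds bases after the start. Of the 72 genes 50 had a window, and 4 of them held the element (Scn9a, Gjc3, Cacna1c and Hcn4), 8.0% beside 4.51% of all 27025 genes with a window. The Hcn4 match lay after the start, and these shares cannot be set beside those of the GC and TATA boxes. Of the 18 genes called in ATF4 against GFP 11 had a window, and 0 of those held it. No Gjb2 or Gja3 window held these letters, which says nothing of sites elsewhere.

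Gja3 (Cx46), best known from the lens, held 34.1, 31.7, 34.6, 33.6 and 30.7 CPM in GFP, 11.8, 9.68, 16.3, 12.9 and 15.1 in ATF4, with 26.5, 27.5, 26.4, 26.7 and 23.2 in DDIT3. The 3 groups did not overlap: every DDIT3 library lay between the ATF4 and the GFP libraries. Gja3 fell in ATF4 against GFP (-1.32 ± 0.13, edgeR adjusted p = 2.9e-07) and was lower than in DDIT3 (-0.98 ± 0.13, 1.1e-05), while DDIT3 against GFP, at -0.34 ± 0.12, was not called (0.293). Gjc1 (Cx45), a connexin of the nodes and conduction system, held 50.6, 49.7, 29.4, 34.9 and 31.5 CPM in GFP, 25.3, 25.2, 16.9, 17.9 and 19.6 in ATF4, with 42.5, 51.2, 29.6, 22.1 and 31.8 in DDIT3. Its ATF4 libraries lay below every GFP library and overlapped with DDIT3 through replicate 4. Gjc1 fell in ATF4 against GFP (-0.90 ± 0.22, edgeR adjusted p = 0.00369) and was lower than in DDIT3 (-0.76 ± 0.22, 0.0115), with DDIT3 against GFP at -0.15 ± 0.21 (0.908).

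Gja1 (Cx43), by far the most abundant of these transcripts, held 1739, 1747, 1304, 1573 and 1464 CPM in GFP, 1389, 1111, 1237, 1355 and 1256 in ATF4, with 1102, 1339, 1229, 1271 and 1119.8 in DDIT3. The GFP libraries overlapped with ATF4 and DDIT3 only through GFP replicate 3, and ATF4 and DDIT3 overlapped with each other. Gja1 fell in ATF4 (-0.30 ± 0.10, edgeR adjusted p = 0.0281), a small change whose call was lost without ATF4 replicate 2 (0.0543), ATF4 replicate 5 (0.0515), GFP replicate 1 (0.0697) or GFP replicate 2 (0.0689), and without both libraries that stood apart (0.0513). In DDIT3 the value was -0.37 ± 0.10 (0.112), called with the block (-0.36 ± 0.09, 0.0428), and ATF4 and DDIT3 differed by 0.07 ± 0.10 (0.647).

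The connexins of the vessel wall and the conduction system were low. Gja4 (Cx37), a connexin of arterial endothelium, stood at 3.87 ± 1.34 CPM in GFP, 6.78 ± 1.58 in ATF4 and 3.88 ± 1.61 in DDIT3. It was called higher in ATF4 than in DDIT3 (0.79 ± 0.30, edgeR adjusted p = 0.0490), a call lost in 15 of 23 alternatives (up to 0.119), among them without any 1 of 12 libraries and without both that stood apart (0.110). Against GFP its value in ATF4 was 0.80 ± 0.30 (0.0516), called in 10 alternatives. Among them were DESeq2 (0.0342), the block (0.00916), a stricter filter (0.0484) and a fit of ATF4 and GFP alone (0.0394). The others left out ATF4 replicate 5 (0.0434), DDIT3 replicate 2 (0.0427), 4 (0.0488) or 5 (0.0411), GFP replicate 2 (0.0441) or both libraries that stood apart (0.0448). Endothelial transcripts rose in ATF4 too, 12 of 14 against GFP (85.7%, beside 16.5% of all genes). Against DDIT3, 13 of 14 were higher (92.9%, beside 17.8% of all genes). None of these transcripts was at 0, and their part in the Gja4 values was not tested. Gja5 (Cx40), of atrial muscle, conduction fibres and arterial endothelium, stood at 5.57 ± 1.45 CPM in GFP, 3.58 ± 2.08 in ATF4 and 3.54 ± 0.905 in DDIT3. ATF4 replicate 5 held 7.24 CPM of Gja5 and the other ATF4 libraries 2.34 to 3.37, below all GFP libraries. Its log2 fold change in ATF4 was -0.63 ± 0.31 (edgeR adjusted p = 0.133), and -1.06 ± 0.26 without ATF4 replicate 5 (0.00619). In DDIT3 Gja5 was -0.65 ± 0.31 (0.520). No DDIT3 library reached the GFP range, but only just (highest DDIT3 library 4.10 CPM, lowest GFP library 4.11 CPM). Atrial transcripts summed to 362 to 663 CPM in GFP libraries, 714 to 1248 in ATF4 and 626 to 1615 in DDIT3, none at 0. The sum in ATF4 was mostly Nppa, which rose from 289.7 ± 149.9 to 760.2 ± 222 CPM, while Kcnj3, Kcnj5 and Stard10 fell and the median log2 fold change of the 9 tested was -0.70. Their part in the Gja5 values was not tested.

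Summed per kilobase, connexin transcripts stood at 546 ± 63.9 CPM per kilobase in GFP, 445 ± 36.3 in ATF4 and 425 ± 33.7 in DDIT3. Gja1 made up 92.4% of that sum in GFP, 91.9% in ATF4 and 91.9% in DDIT3, and Gjb2 2.96 ± 0.738% in ATF4, above the share of Gja3 there (2.10%). Of 17 tested genes of the intercalated disc, connexin partners and pannexins (19 in the table), 1 rose and 6 fell in ATF4 against GFP. That was 41.2% called, beside 32.2% of all genes, and the median log2 fold change of the 17 was 0.01. Xirp2, an actin-binding protein of the disc, rose by 1.21 ± 0.19 on the log2 scale. Dsc2 and Dsg2, the desmosomal cadherins, and Cxadr, an adhesion receptor of the disc, stood at -0.84 ± 0.13, -0.88 ± 0.15 and -0.84 ± 0.16, all called. By edgeR's quasi-likelihood test, 0 of the 17 were called in DDIT3 against GFP, beside 0.863% of all genes. At an unadjusted p below 0.05, 2 were lower, with 0 called by DESeq2 and 2 lower with the block.

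The authors' deposited table for ATF4 against GFP called 7 of 43 genes of these families higher and 14 lower at an adjusted p below 0.05, beside 14.1% and 13.9% of all genes with a value in that table. It included all 18 genes called by edgeR in the same direction, and Cacna1s, Gja4 and Cacng6 besides. For DDIT3 against GFP, the authors' deposited table called 2 of 40 genes higher and 7 lower, beside 0.941% and 0.859% of all genes. Cacnb1 was among the 2, and Gja1, Cacna1g, Scn4a, Clcn1, Hcn4 and Scn10a were among the 7.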

How the data were processed

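Polyadenylated RNA of 15 libraries was analysed. The deposited table of counts per gene was made by the authors with STAR and featureCounts on mm10, per the submitters' processing notes (no version is given in the sources used here). Its gene lengths, as deposited, gave CPM per kilobase. The authors' 2 comparison tables hold, per the file headers, a mean signal, a log2 fold change, a test score and p-values, and were used only where the authors' deposited table is named. The libraries of 1 group differed by more than sampling noise.

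Counts were tested with edgeR 4.0.16 (R 4.3.3; TMM, filterByExpr with a minimum count of 10, robust glmQLFit, 12 residual degrees of freedom) in 1 fit of 15 libraries, and with DESeq2 1.42.0 as an alternative. The test was checked on simulated counts. Values after ± are SD for levels and standard errors for log2 fold changes. Floors (3 counts) and intervals (95%, exact binomial) cover counting error only. Same-numbered libraries deviated together across genes in DDIT3 and GFP (correlations 0.205 to 0.511) and in ATF4 and DDIT3 (0.135 to 0.497). In ATF4 and GFP the correlations were 0.0783 (replicate 2) to 0.386. Unlike-numbered libraries were not compared and no label says what a number marks, so whether the numbers pair any libraries is not settled. Named were the genes of the families called in any comparison, a list of heart genes whatever their test, genes under the filter with at least 50 counts, and up to 4 called genes of each partner list with the lowest p. Some genes that these rules name are not reported here; counts over the families include them. The genes and lists were chosen with earlier results of these data known. The alternatives were other size factors, DESeq2, no filter or a stricter one (minimum 30), the block, 2 groups alone, a term for sex, each library left out in turn, and, chosen after seeing the data, both libraries that stood apart left out.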

Additional observations from a re-analysis of the deposited data

Results flagged for a closer look

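In 11 of 90 combinations of gene and vector group, 1 library lay far from the other 4 by Dixon's test, which chance alone meets in about 1 of 20 groups. ATF4 replicate 2 was the high library for Cacna1c (324 CPM, others 158 to 202) and Clcn2 (14.7 CPM, others 3.26 to 6.05). ATF4 replicate 5 was high for Gja5 (7.24 CPM, others 2.34 to 3.37) and Cacnb1 (8.89 CPM, others 6.46 to 7.04), and ATF4 replicate 1 for Clcn7 (94.7 CPM, others 73.8 to 77.1). ATF4 replicate 3 was low for Scn3a (0.403 CPM, others 1.61 to 2.08), and GFP replicate 3 was high for the same gene (1.84 CPM, others 0.632 to 0.912). DDIT3 replicate 5 was low for Gja3 (23.2 CPM, others 26.4 to 27.5). The other 3 were in DDIT3: replicate 2 was low for Gja5 (1.94 CPM, others 3.77 to 4.10), replicate 1 high for Cacna2d2 (2.78 CPM, others 1.43 to 1.80), and replicate 3 held the only Gjb2 count of its group (0.121 CPM).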

How the results depend on the processing

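Over 23 alternatives, 22 of the 31 calls of named genes kept their direction and side of the threshold in every alternative, 9 were lost in at least 1, and 15 uncalled values were called in at least 1; 0 called values reversed. In ATF4 against GFP the number called higher was 5, and 9 with the replicate block (21.6% of all genes then, 16.5% without it). It was 3 to 7 with single libraries left out. The number called lower was 13 (12 to 14 with single libraries left out, 10 to 15 over the other alternatives). Whether the replicate numbers pair these groups was not settled by the check used. In DDIT3 against GFP, 2 were called higher (0 to 2 with single libraries left out), 1 with DESeq2's size factors, no filter, the stricter filter, a term for sex or both libraries that stood apart left out, and 0 with those 2 groups alone. None was called lower (0 to 3 with single libraries left out), 5 with the DESeq2 Wald test and 7 with the replicate block. In ATF4 against DDIT3, 9 were called higher (6 to 9 with single libraries left out, 6 to 10 over the other alternatives). The number called lower there was 8 (7 to 9 with single libraries left out), and 14 with the replicate block. The cause was not tested. The neural and glial marker score of ATF4 minus GFP, in mean log2 CPM, was 2.55 with a prior count of 0.5. Depth limits the genes near 1.33 CPM, and the 38 genes under the filter have no test.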

Other observations

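Among the genes under the filter, Gja6, a connexin gene of mice, had 8 counts over the GFP libraries, 22 over the ATF4 libraries and 1 over the DDIT3 libraries, a ratio of 23.2 between ATF4 and DDIT3 (95% exact interval 3.75 to 957, counting error only), with no test. Other LRRC8 genes of the volume-regulated anion channel rose less than Lrrc8d and Lrrc8e in ATF4 against GFP: Lrrc8a, the obligatory subunit, went from 24.6 ± 2.47 to 36.1 ± 9.38 CPM (0.56 ± 0.15 on the log2 scale, edgeR adjusted p = 0.00839), and Lrrc8b from 4.30 ± 1.63 to 6.79 ± 1.79 CPM (0.66 ± 0.25, 0.0494). Lrrc8c was not called against GFP (0.51 ± 0.24, edgeR adjusted p = 0.110) and was higher in ATF4 than in DDIT3 (0.95 ± 0.24, 0.00579).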
